A study of Mus musculus with 2 samples.

Results

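The genes of 9 amyloid-degrading proteases were described in hippocampal RNA of an amyloid mouse model, namely Ide, Pitrm1, Mme, Ece1, Ece2, Ace, Mmp2, Mmp14 and Thop1. They were chosen by name as 9 of the 55536 mouse genes in the deposited gene tables, and each symbol matched 1 gene identifier. The data were 2 total RNA sequencing libraries from tissue labelled as layer of hippocampus, taken from female 5xFAD/CAST mice 8 to 10 months old. Both libraries, called replicates 1 and 2 as in the labels, were prepared from 300 ng of input RNA plus an ERCC spike-in mix, and they form a single group with no control group analysed here. 5xFAD mice carry mutant human transgenes, one of them for the amyloid precursor protein, under the neuronal Thy1 promoter, and CAST is a wild-derived strain. The replicates have separate biosample records but share a donor record, which leaves unclear if separate animals were used, and every SD below measures only the spread between these 2 samples. With 1 group the data give levels, transcript shares and differences between the replicates, and no test of a condition. Levels are given as TPM, an abundance per length whose sum is the same in each library, and coordinates refer to mm10 as annotated in GENCODE M21.

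Replicates 1 and 2 held 27816845 and 32316737 expected counts, which are read numbers estimated where a read fits several genes. Of 22015 nuclear protein-coding genes, 13251 reached 1 TPM in each of the libraries and were called detected, with a median of 15.3 TPM. All 6 hippocampal excitatory neuron markers were detected, with mean levels between 26.7 TPM for Prox1 and 1234 TPM for Camk2a. Markers of neighbouring tissue differed between the replicates, since 12 choroid plexus markers summed to 599.9 TPM in replicate 1 and 252.8 TPM in replicate 2, and 6 ependymal markers to 30.7 and 20.3 TPM.

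Amyloid-β peptide is removed from brain tissue in part by proteolysis, and all 9 enzymes are zinc metallopeptidases that have been linked to its breakdown. Neprilysin, encoded by Mme, is an ectoenzyme of the plasma membrane and is regarded as a major amyloid-β-degrading enzyme of the brain, whereas the insulin-degrading enzyme Ide acts mainly in the cytosol and in the extracellular space. The endothelin-converting enzymes work in acidic compartments and at the cell surface, the matrix metalloproteinases in the extracellular matrix, Pitrm1 inside mitochondria and Thop1 in the cytosol. Most of these enzymes have other main substrates, such as insulin, endothelin, angiotensin or collagen.

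The genes belong to 5 families of zinc peptidases, and the coding sequence of the catalytic zinc site is printed because the levels reported further on depend on which transcripts contain it. Each line gives 45 bases of coding strand, 5′ to 3′, from the leading transcript with a complete site, and the capitals mark the 5 codons of the zinc site. The windows were located in mm10, all lie within coding exons, and all genes are on the plus strand except Ide, which is on the minus strand. In most families the capitals hold histidine, glutamate and histidine at the first, the second and the fifth codon, and in the M16 family the glutamate stands at the fourth codon instead.
Ide (M16, chr19:37329121-37329165, exon 2 of Ide-201): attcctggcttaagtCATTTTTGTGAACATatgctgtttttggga
Pitrm1 (M16, chr13:6553210-6553254, exon 4 of Pitrm1-207): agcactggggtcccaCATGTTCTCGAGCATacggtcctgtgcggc
Mme (M13, chr3:63362006-63362050, exon 18 of Mme-201): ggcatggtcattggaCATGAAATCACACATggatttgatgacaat
Ece1 (M13, chr4:137957157-137957201, exon 17 of Ece1-201): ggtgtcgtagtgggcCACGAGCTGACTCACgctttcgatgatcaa
Ece2 (M13, chr16:20643875-20643919, exon 16 of Ece2-201): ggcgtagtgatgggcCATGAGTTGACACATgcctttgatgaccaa
Ace, amino-terminal site (M2, chr11:105972895-105972939, exon 8 of Ace-201): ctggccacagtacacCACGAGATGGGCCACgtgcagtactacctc
Ace, carboxy-terminal site (M2, chr11:105985079-105985123, exon 20 of Ace-201): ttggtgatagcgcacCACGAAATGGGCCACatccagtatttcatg
Mmp14 (M10, chr14:54437612-54437656, exon 5 of Mmp14-201): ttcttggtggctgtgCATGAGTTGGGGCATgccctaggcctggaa
Mmp2 (M10, chr8:92839264-92839308, exon 8 of Mmp2-201): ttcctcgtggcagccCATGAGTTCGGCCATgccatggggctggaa
Thop1 (M3, chr10:81080561-81080605, exon 9 of Thop1-201): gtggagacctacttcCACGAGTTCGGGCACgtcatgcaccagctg

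Aligned without gaps, the windows of Mmp14 and Mmp2 shared 35 of 45 bases (77.8%), those of Ece1 and Ece2 34 (75.6%) and the pair within Ace 32 (71.1%). Ece2 and Mme shared 33 bases, whereas Ece1 and Mme shared 26. Ide and Pitrm1, although of the same family, shared 23 of 45 bases, fewer than the 26 shared by Thop1 and the amino-terminal site of Ace. Of the 52 transcripts annotated for the 9 genes, 18 are protein-coding and hold the site, 8 are protein-coding without it and 26 belong to classes other than protein-coding, such as retained introns.

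All 9 genes were detected in both libraries. Their levels are described as a higher and a lower set, a division drawn from these same values. The genes for Pitrm1, Ece1, Thop1, Ide and Ece2 lay between 13.70 and 29.29 TPM, and those for Ace, Mmp14, Mmp2 and Mme between 1.21 and 6.68 TPM. The gap between the sets, from Ece2 down to Ace, was wider than the spread of either gene between the replicates. On a log scale the step from Mmp14 (4.53 to 5.62 TPM) to Mmp2 (1.73 to 1.99 TPM) was at least as wide. Over transcripts with the zinc site Ece2 and Ace lay nearer, at 8.72 to 10.45 TPM and 4.73 to 6.68 TPM. Together the 9 genes summed to 120.50 TPM in replicate 1 and 110.47 TPM in replicate 2, of which the 5 higher genes took 88.0% ± 0.859 (SD, n = 2). In the order of mean level, Pitrm1 and Ece1, Ide and Ece2, and Ace and Mmp14 were neighbours whose ranges over the libraries overlapped, and the other neighbours did not overlap. Neprilysin was thus the lowest of the 9 by TPM, and the ranges of Mme and Mmp2, 1.21 to 1.37 and 1.73 to 1.99 TPM, did not meet. The deposited TPM intervals of the pair did overlap in each library, at 0.977 to 2.29 for Mme and 1.59 to 2.67 for Mmp2 in replicate 1. The order of Mme and Mmp2 is therefore less firm than their ranges alone show.

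**Figure D1:**
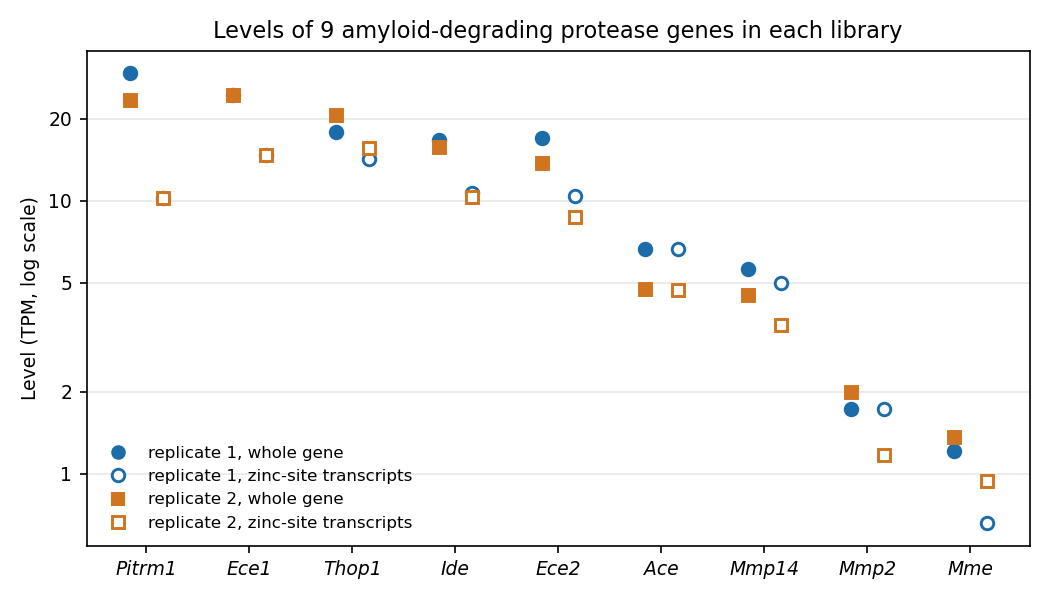
Level of each protease gene in TPM (log axis) in replicate 1 (circles) and replicate 2 (squares), for the whole gene (filled) and for the coding transcripts that hold the zinc site (open). The 5 genes on the left lie at 13.70 TPM or above and Ace, Mmp14, Mmp2 and Mme at 6.68 TPM or below. The open symbols of Pitrm1, at 10.19 and 10.22 TPM, lie far below its filled ones.

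Pitrm1, the presequence peptidase that clears targeting peptides from the mitochondrial matrix, had the highest mean of the genes (chromosome 13, 6548149 to 6580515, plus strand). It reached 29.29 TPM (replicate 1) and 23.34 TPM (replicate 2), a mean of 26.3 ± 4.21 TPM, above 68.3% of the detected coding genes. Most of this level lay on short transcripts annotated in classes other than protein-coding. Its coding transcripts Pitrm1-201 and Pitrm1-207, of 3318 and 3906 nucleotides, held 10.19 and 10.22 TPM in replicates 1 and 2. The largest single level in replicate 1 was that of Pitrm1-202, a transcript of 778 nucleotides annotated as subject to nonsense-mediated decay, at 8.10 TPM, against 6.39 TPM for Pitrm1-207. In replicate 2 the order was the other way round, with 5.58 TPM for Pitrm1-202 and 7.11 TPM for Pitrm1-207. Of its retained-intron transcripts Pitrm1-204 held 2.82 and 2.69 TPM, Pitrm1-206 3.02 and 1.59 TPM and Pitrm1-208 2.93 and 2.19 TPM. The coding transcripts took 39.3% ± 6.35 of the TPM of the gene but 80.1% ± 4.21 of its expected counts (SD, n = 2).

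The split among Pitrm1 transcripts differed between the deposited transcript tables. The values so far come from tables in the column layout of RSEM. In the table of estimated counts, which has the layout of kallisto output, Pitrm1-201 stood at 8.04 and 7.20 TPM and Pitrm1-207 at 3.03 and 3.42 TPM, the reverse of their order above. Pitrm1-203, another transcript of the decay class, with 486 nucleotides, held 8.86 and 5.56 TPM there but 1.81 and 0.85 TPM in the other table. The sum of the coding transcripts was close, 10.2 ± 0.0212 TPM by the RSEM-layout values and 10.8 ± 0.318 TPM by the kallisto-layout values. The 3′ end of Pitrm1 overlaps Pfkp, the platelet-type phosphofructokinase gene, on the opposite strand, which stood at 95.22 and 97.66 TPM. The library kit is directional, per the labels, and whether reads were counted by strand is not given in the sources used here.

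Ide, whose product degrades insulin as well as amyloid-β, was detected at 16.73 TPM (replicate 1) and 15.73 TPM (replicate 2) (chromosome 19, 37268743 to 37337852, minus strand). Its mean of 16.2 ± 0.707 TPM lay above 52.1% of the detected coding genes. Ide has a single annotated coding transcript, Ide-201, of 4962 nucleotides, whose coding sequence is marked as incomplete at its 5′ end. It held 10.63 TPM in replicate 1 and 10.31 TPM in replicate 2. The zinc site printed above lies at codon 75 of this incomplete sequence, in its exon 2 (37329136 to 37329150). Ide-204, a retained-intron transcript of 1723 nucleotides that starts 7239 bp upstream of Ide-201, held 4.60 and 4.71 TPM. It thus took 27.5% of the TPM of the gene in replicate 1, or 28.2% by the kallisto-layout values. The noncoding Ide-202 and Ide-205 held at most 0.51 TPM, but 2.40 and 1.89 TPM in replicate 1 by the kallisto-layout values. In that table Ide-201 held a smaller share of the gene's TPM, 47.5% ± 7.38, against 64.5% ± 1.42 in the RSEM-layout table. The pseudogene Rpl10-ps6 lies within the span of Ide on the same strand and had 8.77 expected counts in replicate 1 and 0 in replicate 2.

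How Pitrm1 and Ide compared depended on the transcripts and on the table. By the RSEM-layout values the ratio of Pitrm1 over Ide was 1.62 ± 0.189 for whole genes (SD, n = 2). It was 0.975 ± 0.0231 for the protein-coding transcripts that hold the zinc site. By the kallisto-layout values it was 1.37 ± 0.0626 for whole genes and 1.32 ± 0.0896 for zinc-site transcripts, whose ranges, 10.6 to 11.1 TPM for Pitrm1 and 7.98 to 8.42 TPM for Ide, did not meet. In the gene table both genes lay below the 5 other genes of the M16 family that were listed. Uqcrc1 and Uqcrc2, the core subunits of respiratory complex III that share the fold without the protease activity, stood at 153 ± 2.52 and 97.0 ± 9.92 TPM. Nrd1, the nardilysin gene, stood at 53.3 ± 3.54 TPM and Pmpca, a subunit of the mitochondrial processing peptidase, at 39.3 ± 1.37 TPM. Its partner subunit Pmpcb stood at 30.9 ± 0.269 TPM, above Pitrm1 in the gene table, but by the kallisto-layout values Pitrm1 averaged 23.98 TPM and Pmpcb 23.45 TPM.

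In the M13 family the 3 genes spread widely. Ece1, the enzyme that converts big endothelin to endothelin, was at 24.40 TPM (replicate 1) and 24.44 TPM (replicate 2) (chromosome 4, 137862237 to 137965229, plus strand). Its mean of 24.4 ± 0.0283 TPM lay above 66.0% of the detected coding genes. Ece2, a relative that is abundant in neurons, was at 16.97 and 13.70 TPM, with a mean of 15.3 ± 2.31 TPM (chromosome 16, 20629828 to 20646485, plus strand). Mme was at 1.21 TPM (replicate 1) and 1.37 TPM (replicate 2), a mean of 1.29 ± 0.113 TPM (chromosome 3, 63241537 to 63386030, plus strand). Only 1.22% of the detected coding genes lay lower than Mme, which was itself close to the detection level of 1 TPM. Of all 22015 nuclear protein-coding genes 60.2% were detected, and the rest stayed out of this comparison. In the same libraries Ece1 was 19.0 ± 1.64 times and Ide 12.7 ± 1.66 times as abundant as Mme per length. By the kallisto-layout values these ratios were close to each other, at 14.7 ± 0.201 for Ece1 and 14.5 ± 1.15 for Ide.

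The level of Ece1 rested in part on a very short transcript. Ece1-201, of 4816 nucleotides and the single annotated Ece1 transcript with the zinc site (codon 590, exon 17), held 14.65 TPM in replicate 1 and 14.76 TPM in replicate 2. Ece1-203, a coding fragment of 172 nucleotides that starts 60 bp downstream of the start of Ece1-201 and is incomplete at its 3′ end, held 6.36 and 6.82 TPM from 9 and 11 expected counts. It made up 0.640% of the counts of the gene in replicate 1 but 26.1% of its TPM, and it was listed at 0 in the kallisto-layout table. Ece1-204, whose start lies 51234 bp downstream of that of Ece1-201 and whose 3′ end is also incomplete, held 3.16 and 2.66 TPM. By the kallisto-layout values the gene summed to 17.9 and 17.3 TPM, 0.720 of its gene-table mean. There the range of Ece1 lay below that of Thop1 and overlapped that of Ide. The antisense gene Gm13012, which overlaps Ece1, had 0 and 1 expected counts.

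Ece2 was carried by several transcripts. Ece2-201, of 3152 nucleotides, held 7.57 TPM in replicate 1 and 6.65 TPM in replicate 2, and Ece2-203, whose coding start is incomplete, 2.41 and 1.89 TPM. The 4 coding transcripts, all with the zinc site, took 62.6% ± 1.43 of the TPM and 84.3% ± 0.449 of the counts, and retained-intron transcripts took the rest. Of these Ece2-205 stood at 2.40 and 2.00 TPM, Ece2-206 at 1.31 and 1.53 TPM and Ece2-207 at 2.81 and 1.46 TPM. Ece2 was the one gene of the 9 whose count carried an uncertainty of read assignment, with a deposited posterior SD of 13.23 counts on 750 in replicate 1 and 18.53 on 722 in replicate 2. The other 8 genes had a posterior SD of 0 in both. The annotation also holds Gm49333, a coding gene that spans Ece2 and the upstream methyltransferase gene Eef1akmt4 on the same strand. Gm49333 was listed at 0 expected counts with a posterior SD of 14.21 and 19.29, and at 23.9 and 14.4 estimated counts in the kallisto-layout table. Eef1akmt4 itself stood at 1.70 and 1.31 TPM.

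Mme had too few counts for a firm split among its transcripts. It had 69 expected counts in replicate 1 and 116 in replicate 2, over 8 annotated transcripts. The 3 full-length coding transcripts encode the same length of 2250 nucleotides and differ in their ends. Mme-201 held 0.28 and 0.37 TPM, Mme-205 0.21 and 0.37 TPM and Mme-206 0.17 and 0.20 TPM. These 3 summed to 0.66 TPM in replicate 1 and 0.94 TPM in replicate 2, so transcripts with the zinc site stayed below 1 TPM in both. Mme-202, a fragment of 569 nucleotides without the site, held 0.35 and 0.33 TPM from 3.22 and 3.45 counts, and Mme-203 held 0.20 TPM in replicate 1 and 0 in replicate 2. In the kallisto-layout table another fragment, Mme-208, led with 0.475 and 0.359 TPM. Of the 4 other M13 genes listed, Ecel1, a neuronal relative, exceeded Mme at 2.44 ± 0.778 TPM. Mmel1, the closest relative of neprilysin, stood at 0.215 ± 0.148 TPM, Phex at 0.145 ± 0.148 TPM and Kel at 0.030 ± 0.0424 TPM.

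Ace converts angiotensin I to angiotensin II, and its somatic form holds a pair of zinc sites. The gene reached 6.68 TPM (replicate 1) and 4.74 TPM (replicate 2), a mean of 5.71 ± 1.37 TPM (chromosome 11, 105967945 to 105989964, plus strand). It lay above 22.6% of the detected coding genes. Replicate 1 was higher, and Ace was the only gene of the 9 whose deposited TPM intervals, 6.03 to 8.13 in replicate 1 and 4.27 to 5.56 in replicate 2, did not overlap. Ace3, a relative of Ace in the mouse, had 0 counts in both libraries. At these depths no count leaves room for a true level of up to 3 counts, which is 0.108 and 0.0933 CPM, the count scaled to library size.

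The transcripts of Ace start at different promoters. Ace-201 encodes the somatic enzyme with both sites, at codons 395 (exon 8, 105972910 to 105972924) and 993 (exon 20, 105985094 to 105985108), and held 5.10 TPM in replicate 1 and 3.74 TPM in replicate 2. Ace-202 starts 7263 bp further downstream at the internal promoter known from testis and holds the carboxy-terminal site alone. It held 0.79 and 0.55 TPM. Ace-203, annotated with an incomplete coding start, has both sites and held 0.79 and 0.44 TPM. The somatic transcript thus took 77.7% ± 1.93 of the TPM of the gene (SD, n = 2). By the kallisto-layout values it took 57.5% ± 4.72, and Ace-203 took 20.3% ± 2.31. The internal-promoter transcript was less certain, because the kallisto-layout table gave it 0.740 TPM in replicate 1 and 0.0242 TPM in replicate 2. That table also gave the noncoding Ace-204 1.19 and 0.785 TPM, where the RSEM-layout table listed it at 0. The antisense gene Gm11651 spans both promoters and had 0 expected counts in each library.

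The sequences at these starts are shown because transcripts from both were listed, as 250 bases before and 50 bases after the RefSeq start (GRCm38.p6, plus strand, 5′ to 3′). The capitals mark matches, on either strand, to TATAAA and to GGGCGG, letters that resemble a TATA box and a GC box.
Ace somatic start, chr11:105967698-105967997: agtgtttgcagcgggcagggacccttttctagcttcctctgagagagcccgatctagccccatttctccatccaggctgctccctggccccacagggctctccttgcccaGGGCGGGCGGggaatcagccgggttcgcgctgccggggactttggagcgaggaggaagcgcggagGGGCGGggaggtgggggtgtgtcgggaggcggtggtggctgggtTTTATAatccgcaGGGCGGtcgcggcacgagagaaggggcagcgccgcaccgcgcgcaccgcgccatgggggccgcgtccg
Ace internal start, chr11:105974939-105975238: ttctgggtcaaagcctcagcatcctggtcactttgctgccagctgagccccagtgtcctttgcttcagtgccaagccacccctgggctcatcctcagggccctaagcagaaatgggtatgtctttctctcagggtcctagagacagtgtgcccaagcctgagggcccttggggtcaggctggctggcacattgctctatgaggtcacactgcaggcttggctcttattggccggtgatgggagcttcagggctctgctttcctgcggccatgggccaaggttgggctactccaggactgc

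The somatic window was 69.7% G and C and held 1 match to TATAAA, on the minus strand, and 4 to GGGCGG, of which a pair overlap. The internal window was 59.0% G and C and held neither string. Among 32851 RefSeq windows of the same length, 13.6% held TATAAA and 35.7% held GGGCGG. Promoter windows were found for 8 of the 9 genes, in 14 entries.

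**Figure D2:**
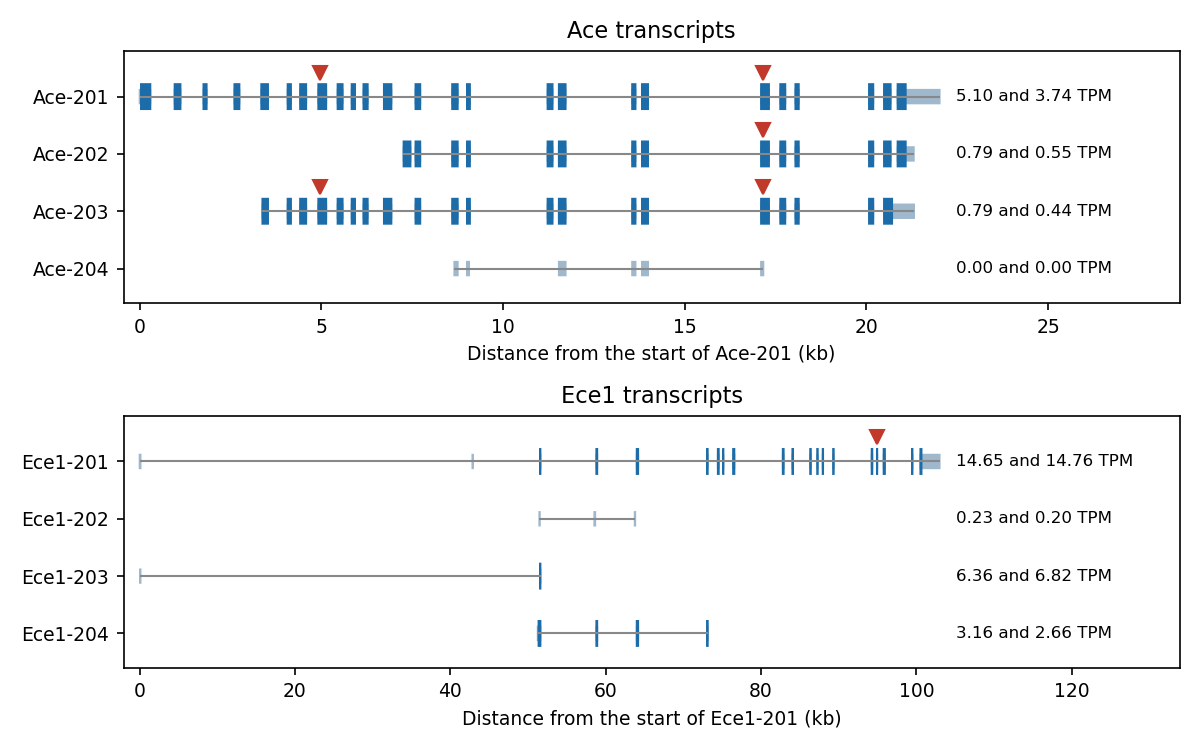
Annotated transcripts of Ace and Ece1 as exons along the distance from the start of the first listed transcript in kb, with coding parts in dark blue, other exon parts in pale blue and zinc sites as red triangles. Outlines keep short exons visible. The text at the right gives TPM in replicates 1 and 2. Ace-202 keeps 1 of the 2 sites of Ace-201, and none of the short Ece1 transcripts reaches the site, which only Ece1-201 holds at 14.65 and 14.76 TPM.

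The matrix metalloproteinases were at the low end. Mmp14, a membrane-anchored collagenase that activates the Mmp2 proenzyme at the cell surface, reached 5.62 TPM (replicate 1) and 4.53 TPM (replicate 2), a mean of 5.08 ± 0.771 TPM (chromosome 14, 54431612 to 54445364, plus strand). Mmp2, the secreted gelatinase A, stood at 1.73 and 1.99 TPM, a mean of 1.86 ± 0.184 TPM (chromosome 8, 92827291 to 92853420, plus strand). The activator was therefore above its target in both libraries, at a ratio of 2.76 ± 0.687 (SD, n = 2). Mmp14-201 held 4.94 and 3.52 TPM, and its retained-intron relative Mmp14-207 stood at 0.14 and 0.34 TPM but at 1.01 and 0.930 TPM in the kallisto-layout table. All of Mmp2 lay on Mmp2-201 in replicate 1, at 1.73 TPM. In replicate 2 Mmp2-201 held 1.17 TPM, and the short Mmp2-202 and Mmp2-203 added 0.61 and 0.22 TPM from 11.37 and 2.77 counts. Mmp2-204, a retained-intron transcript listed at 0 in both, had 0.308 TPM in replicate 2 by the kallisto-layout values. The whole-gene level of Mmp2 was thus higher in replicate 2 while that of its full-length transcript was lower.

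The 4 highest of 10 listed inhibitors and activators exceeded each of the 9 protease genes. Timp2, an inhibitor that also bridges Mmp14 and the Mmp2 proenzyme, stood at 121 ± 4.63 TPM and Timp3 at 32.6 ± 0.424 TPM. The serpins Serpini1 (neuroserpin) and Serpine2, which act on serine proteases such as plasminogen activators, stood at 85.0 ± 9.07 and 84.4 ± 2.26 TPM. All 10 were detected. The broad protease inhibitor A2m had the largest ratio between the replicates among these at 100 counts or more, with 9.47 TPM (replicate 1) and 5.47 TPM (replicate 2). Of 18 other matrix metalloproteinases, 7 were detected and 5 had no count in either library, namely Mmp3, Mmp7, Mmp10, Mmp13 and Mmp27. The highest were the membrane-type enzymes Mmp17 at 43.6 ± 2.43 TPM, Mmp16 at 23.6 ± 3.32 TPM, Mmp24 at 13 ± 0.643 TPM and Mmp15 at 6.94 ± 0.516 TPM. Each had a higher mean than Mmp14, the only membrane-type enzyme among the 9 genes.

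**Figure D3:**
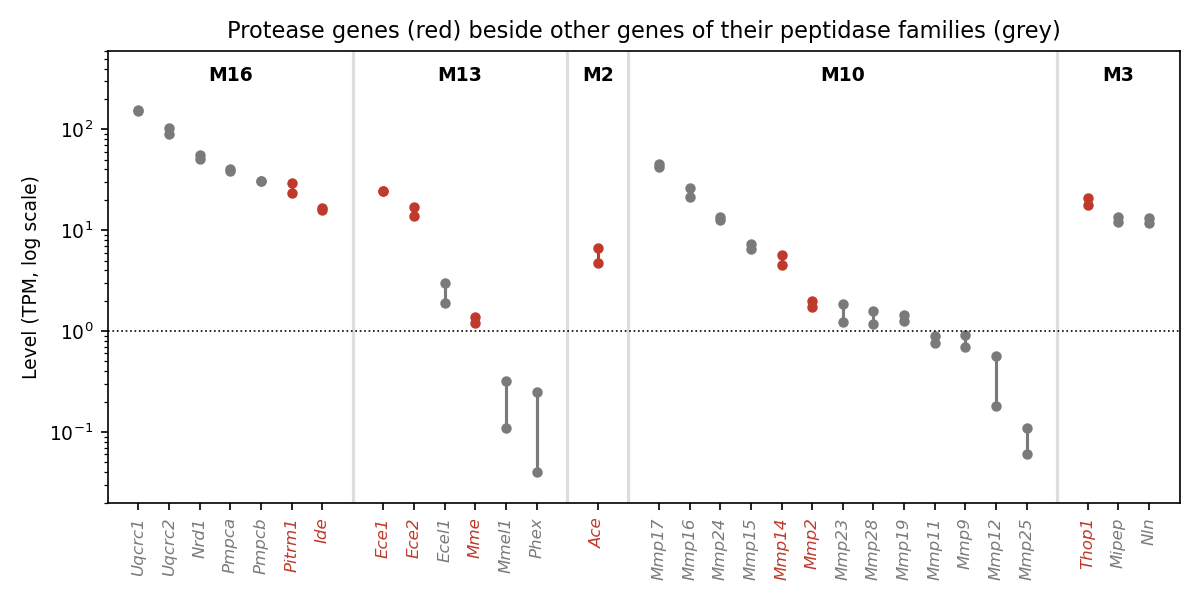
Level in TPM (log axis) of the 9 protease genes (red) and of other genes of their peptidase families (grey), with a point for each library, a line joining the libraries and a dotted line at the detection level of 1 TPM. Genes listed at 0 in either library are not drawn. Thop1 is the highest of its family here, whereas Ide is the lowest of its own and Mmp14 and Mmp2 lie below Mmp17, Mmp16, Mmp24 and Mmp15.

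Thop1, thimet oligopeptidase, cleaves neuropeptides and other short peptides. It reached 17.87 TPM (replicate 1) and 20.63 TPM (replicate 2), a mean of 19.3 ± 1.95 TPM, above 57.7% of the detected coding genes (chromosome 10, 81070035 to 81082559, plus strand). Its single coding transcript, Thop1-201, with the zinc site at codon 473 in exon 9, held 14.23 and 15.61 TPM. With Ece1-201 it was the most abundant transcript of the 9 genes that holds a complete site, and the ranges of the pair overlapped. Among retained-intron transcripts Thop1-203 stood at 1.94 and 1.93 TPM and Thop1-202 at 0 and 1.11 TPM, while the kallisto-layout table gave Thop1-202 2.83 and 3.50 TPM. The other M3 genes listed lay lower, with the mitochondrial intermediate peptidase Mipep at 12.8 ± 0.983 TPM and neurolysin, Nln, at 12.6 ± 1.07 TPM.

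Counting only protein-coding transcripts that hold the zinc site lowered and reordered the levels. The 9 genes then summed to 74.22 TPM (replicate 1) and 69.98 TPM (replicate 2), a mean of 72.1 ± 3.0 TPM. By the RSEM-layout values the order became Thop1, Ece1, Ide, Pitrm1, Ece2, Ace, Mmp14, Mmp2 and Mme. The ranges of Thop1 and Ece1, Pitrm1 and Ece2, and Ace and Mmp14 overlapped, and Ide and Pitrm1 were barely apart. By the kallisto-layout values the upper 5 were Ece1, Thop1, Pitrm1, Ece2 and Ide, with overlapping ranges for Ece1 and Thop1. Pitrm1 was thus no longer first in either, and the lower 4 genes kept their places in both. Neprilysin transcripts with the site remained the lowest, and Thop1 exceeded them 19.1 ± 3.50 times. By the RSEM-layout values the share of TPM on protein-coding transcripts with the site ran from 39.3% for Pitrm1 to 100% for Ace. Their share of expected counts ran from 80.1% for Pitrm1 to 100% for Ace. By the kallisto-layout values the share of TPM was 45.7% ± 6.10 for Pitrm1, 47.5% ± 7.38 for Ide and at most 83.3%, for Ace. TPM divides by transcript length, so a few reads on a short transcript weigh more there than in counts. By its mean share of the gene's TPM the leading transcript was protein-coding for all 9 genes. For Pitrm1 this rests on 26.1% for Pitrm1-207 against 25.8% for Pitrm1-202, and by mean TPM the decay-class Pitrm1-202 led, with 6.84 against 6.75 TPM. For Mme the leader was Mme-202, a fragment without the zinc site, at 26.5% of TPM but 3.82% of expected counts. By the kallisto-layout values it was the fragment Mme-208, also without the site, at 34.7% of TPM.

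**Figure D4:**
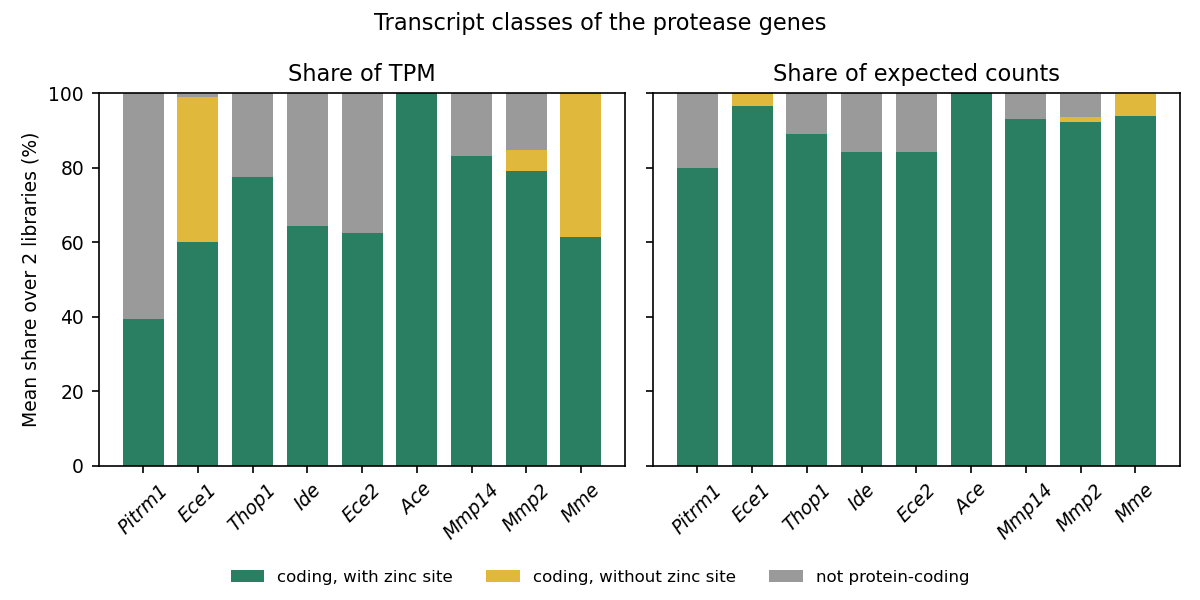
Mean share over both libraries of each gene's TPM (left) and expected counts (right) on coding transcripts with the zinc site (green), coding transcripts without it (yellow) and transcripts of other classes (grey), in percent. The green part of Pitrm1 is 39.3% of TPM and 80.1% of counts and that of Ece1 60.2% and 96.7%, while Ace is green throughout. All shares drawn are RSEM-layout values.

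The replicates were compared by counts. The expected counts were scaled with TMM, a normalization for library composition, and the log2 ratio of replicate 2 over replicate 1 was taken with a prior count of 2. With 1 library on each side there is no test, so calls go by size, and intervals are exact 95% binomial intervals of the counts, which cover counting error only. None of the 9 genes differed by 2-fold, where 2.66% of the 18897 genes averaging 10 counts or more did, and none by 1.5-fold, where 8.60% did. At a smaller size, 0.32 on the log2 scale, 4 of the 9 were called, against 19.9% of all genes. The median size of the log2 ratio was 0.26 over the 9 genes and 0.12 over all 18897.

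Ace, Mmp14 and Mmp2 passed this smaller size in the lower direction, as did 13.6% of all genes. The call of Mmp2 ended under DESeq2 size factors, at -0.319, and under spike-in scaling, at -0.26. Ace had 573 counts in replicate 1 and 467 in replicate 2, a log2 ratio of -0.50 with an interval of -0.68 to -0.32. Mmp14 had 255 and 219 counts and a log2 ratio of -0.42 (-0.69 to -0.16). Mmp2 had 101 and 92 counts and a log2 ratio of -0.33 (-0.76 to 0.08), so an equal level lay within its counting error. Marker genes of some other cell types moved the same way. All 12 choroid plexus markers were lower in replicate 2, each past the same size, with a median log2 ratio of -0.94 and none at 0. All 6 ependymal markers were lower too, with a median of -1.22, as were all 5 blood markers (289.0 and 201.6 TPM summed in replicates 1 and 2) and all 6 oligodendrocyte markers (1920 and 1555 TPM). All 6 astrocyte markers and 5 of 6 microglia markers were lower as well, but by less. Their median log2 ratios were -0.09 and -0.14, and none of them passed the same size. The 7 fibroblast and meningeal markers summed to 108 and 107 TPM and the 6 endothelial markers to 96.6 and 94.7 TPM. Of the fibroblast and meningeal markers 5 were lower and 2 higher. The endothelial and the mural list each had 3 lower and 3 higher. The part of these cell types in the ratios of Ace, Mmp14 and Mmp2 was not tested. In bulk RNA fewer cells of a type and less RNA per cell cannot be told apart.

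Mme was the one gene past it in the higher direction, as were 6.34% of all genes. Its 69 counts in replicate 1 and 116 in replicate 2 gave a log2 ratio of 0.53, with a wide interval of 0.10 to 1.00. Under spike-in scaling the ratio was 0.60, which passes 1.5-fold. All 6 neuronal markers were higher in replicate 2 as well, with a median log2 ratio of 0.13. So were all 6 hippocampal excitatory markers, with a median of 0.14. Of the 6 interneuron markers 4 were higher and 2 lower, with a median of 0.05. The part of neurons in the ratio of Mme was not tested. Thop1 had 855 and 1074 counts and a ratio of 0.12 (-0.01 to 0.26). Ece2 had 750 and 722 counts and a ratio of -0.26 (-0.41 to -0.11), and its posterior SD of the count adds an uncertainty that the interval leaves out. The ratios of Pitrm1, Ide and Ece1 were -0.10, -0.07 and -0.01, each with an interval that includes an equal level. The signs of Ide and Ece1 turned under spike-in scaling, and that of Ece1 also under DESeq2 size factors and in the kallisto-layout counts.

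For some genes TPM and counts gave different pictures of the same libraries. Mmp2 was higher in replicate 2 by 0.20 on the log2 scale in TPM and lower by counts. Its effective length, the abundance-weighted transcript length used for TPM, was 2978 nucleotides in replicate 1 and 2063 in replicate 2. The TPM of Pitrm1 had a log2 ratio of -0.33 against -0.10 in counts, and its effective length was 1618 nucleotides in replicate 1 and 1912 in replicate 2. For Mme the ratio was 0.18 in TPM and 0.53 in counts, with effective lengths of 2914 and 3785 nucleotides. In each case the estimated mixture of short and long transcripts differed between the libraries. For Ece1 and Ace, whose effective lengths were nearly equal in the libraries, the TPM and count ratios were close, at 0.0024 and -0.0096 for Ece1 and -0.495 and -0.498 for Ace.

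**Figure D5:**
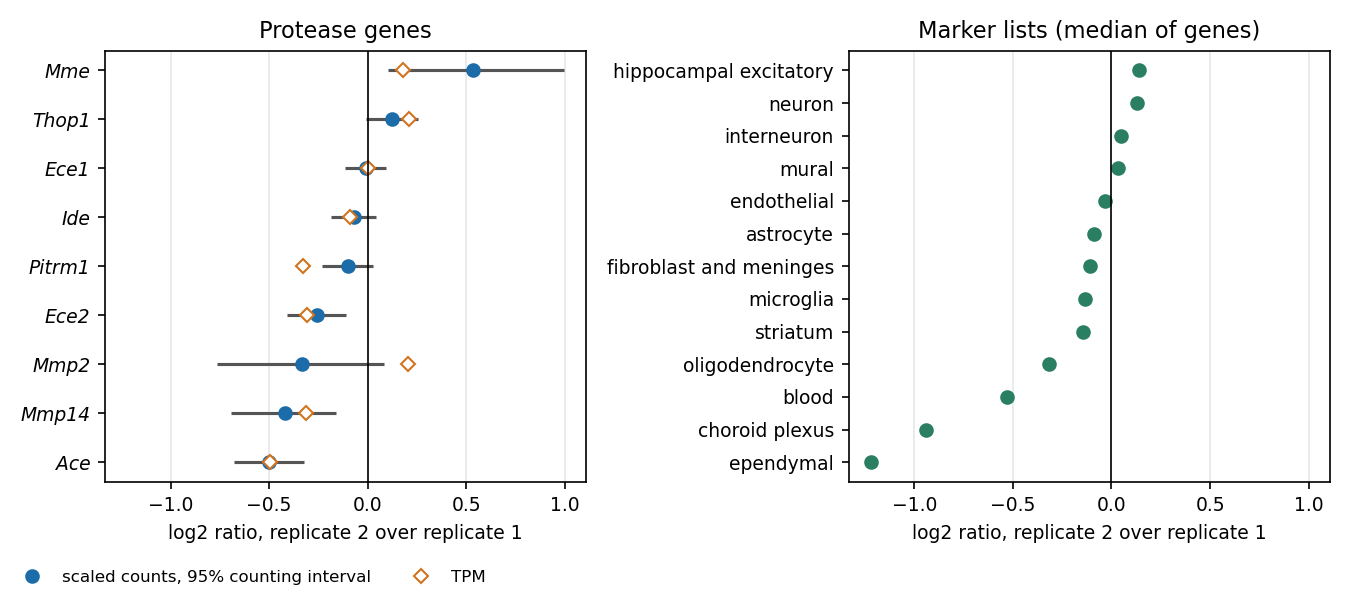
Left, log2 ratio of replicate 2 over replicate 1 for each protease gene, from scaled counts (filled, with 95% counting intervals) and from TPM (open). Right, median log2 ratio of each list of cell type markers. Ace at -0.50 is the lowest gene and Mme at 0.53 the highest, and the choroid plexus and ependymal lists lie at -0.94 and -1.22.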

How the data were processed

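Each library was quantified on its own against mm10 and GENCODE M21, per the readme that accompanies the files. The authors deposited expected counts, TPM, a posterior SD of the count and TPM intervals per gene and transcript, in the column layout of RSEM, with the percent of a gene's TPM on each transcript. A further table that the authors deposited holds estimated counts and TPM by transcript, laid out as kallisto writes them. Which programs were run, and their versions, is not given in the sources used here.

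Genes were matched by symbol and identifier, and all ratios were computed on the whole table of mouse genes. Rows that name no mouse gene (spike-ins, phiX174 and numeric identifiers) stayed out of library sizes. For ratios, expected counts were rounded and scaled by TMM in edgeR 4.0.16 (R 4.3.3) over genes averaging 10 counts or more, and the step was tested on simulated data. DESeq2 1.42.0 size factors served as an alternative. A share or level is the mean ± SD over n = 2. Zinc-site codons were located in the annotated coding sequences of the M21 transcripts. Transcripts without a coding sequence were not searched for them. Promoter windows are RefSeq's (GRCm38.p6). No protein sequence and no CAST sequence was used, so reads that differ from mm10 may be undercounted. Reads carry no molecular identifiers.

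The 9 genes, the gene lists and the settings were chosen with earlier results of these data known. Named are all 9 genes with every transcript at 10% or more of the gene's TPM in either table, the 4 highest genes of each list, its gene with the largest ratio at a mean count of at least 100, and genes overlapping a protease gene. The undetected metalloproteinases and Pmpcb were named after their values were seen. Some genes on the lists are not reported here. The older symbol Nrd1 was used for Nrdc. Software was Python 3.11.15 with Biopython 1.88, pandas 2.3.3, numpy 2.4.6, scipy 1.17.1 and matplotlib 3.10.9.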

Additional observations from a re-analysis of the deposited data

How the results depend on the processing

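The summed level of the 9 genes, 115 TPM, was 108 TPM by the kallisto-layout values, 258 TPM when TPM was rescaled over nuclear protein-coding genes and 72.1 TPM over transcripts with the zinc site, an alternative chosen after the data were seen. It ran from 110.47 to 120.50 TPM with either replicate left out. In the order of levels 7 genes kept their place in the kallisto-layout table and with either replicate left out. With zinc-site transcripts alone 6 did, and under the rescaling all 9. The rescaling uses a single factor per library, so the order within a library could not change. All 9 genes were detected at 0.5 TPM, by the kallisto-layout values and after rescaling, 8 by zinc-site transcripts and 7 at a threshold of 2 TPM. Neither the lower threshold nor the rescaling, which raised the levels, could lose a gene detected at 1 TPM. None passed 2-fold under DESeq2 size factors, library size alone, spike-in scaling, prior counts of 0.5 or 5, estimated counts or other count filters. The count filters only choose which genes are kept and leave each ratio as it was. Under spike-in scaling Mme passed 1.5-fold, at a log2 ratio of 0.60, and under the other 5 scalings, prior counts and tables none did. The smaller size of 0.32 on the log2 scale was passed by 4 genes, and by 3 under DESeq2 size factors and spike-in scaling, which lost Mmp2 at -0.319 and -0.26. The leading transcript by mean share of TPM was protein-coding for 9 genes in both tables and for 8 to 9 with either replicate left out, Pitrm1 being the exception in replicate 1. For Mme the leader by mean share was a fragment without the zinc site in both tables. The share of TPM on the leading transcript moved by more than its SD for 8 of the 9 genes in the kallisto-layout table. At 69 to 116 counts for Mme and 92 to 101 for Mmp2, depth limits any statement on their transcripts. No paired analysis was possible because the 2 libraries form 1 group.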

Other observations

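Several other proteases reported to cleave amyloid-β exceeded each of the 9 genes. The lysosomal cathepsins Ctsd and Ctsb stood at 863 ± 7.90 and 347 ± 1.91 TPM (SD, n = 2). The secreted serine protease Htra1 stood at 102 ± 7.88 TPM. Bace1, the β-secretase that takes part in releasing amyloid-β and can also cleave it, stood at 31.6 ± 0.148 TPM. Of 11 such genes listed 8 were detected, and the plasminogen gene Plg had 1 and 2 counts in replicates 1 and 2. Htra1 had the largest ratio between the replicates among those at 100 counts or more, a log2 ratio of -0.19.

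Genes of peptides or precursors that the 9 enzymes cleave covered a wide range. App, the amyloid precursor, was at 519.6 ± 28.3 TPM in the gene table but 1032 ± 34.2 TPM by the kallisto-layout values. No human transgene sequence was used, and the part of transgene reads in either value was not tested. The neuropeptide genes Cck and Sst, the cholecystokinin and somatostatin genes, stood at 238 ± 20.9 and 149.8 ± 16.6 TPM, and Igf2 at 43.8 ± 5.89 TPM. Agt, which encodes angiotensinogen at the head of the pathway in which Ace acts, had 24.73 TPM (replicate 1) and 12.43 TPM (replicate 2), with a log2 ratio of -1.0 from 870 and 499 counts. This was the largest ratio among the 14 substrate genes at 100 counts or more, and it had the same sign as that of Ace. Whether the pair moves together beyond these 2 libraries was not tested.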
